A study of Mus musculus with 17 samples.

Results

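Scavenger receptors for lipid and polyanions were followed in sorted mouse Kupffer cells (KCs), which are liver macrophages that reside in the sinusoids. The 6 genes were Marco, Msr1, Colec12, Cd36, Scarb1 and Olr1, found by symbol among the 25124 genes of each of the 3 deposited tables. KCs were gated as TIM4+ macrophages and split into the main CD206+ and the minor CD206hi subset, and both were sorted from untreated livers and from livers taken 2 weeks after pancreatic tumour cells were injected into the portal vein, with 3 samples in each of the 4 groups. TIM4+ KCs of untreated mice with both Id3 alleles floxed, without cre (Id3f/f, 3 samples) and with cre expressed from Clec4f (Clec4fCreId3f/f, 2 samples), made up the third table. ID3 is a nuclear factor of KCs that binds E proteins and keeps them from DNA. KCs acquire CLEC4F after birth, so cre removes Id3 after KCs have formed, and the floxed mice carry the same alleles without this loss. The study gives the n of both Id3 groups as mice. For the tumour samples the sources used here do not state that each came from a separate animal, so that their p-values measure the spread between samples, which may be technical. The ages of the mice were not given in these sources.

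Scavenger receptors bind modified lipoproteins, bacterial surface polymers and remnants of dying cells, and pass them to endosomes and lysosomes. MARCO, MSR1 (SR-A1) and COLEC12 (SRCL) carry a collagenous stalk, and that of MSR1 holds positive charge and takes polyanionic ligands. CD36 and SR-BI, the product of Scarb1, are hairpin-shaped receptors with a lipid tunnel, CD36 for long-chain fatty acids and oxidized low-density lipoprotein and SR-BI for cholesteryl ester of high-density lipoprotein. LOX-1, the product of Olr1, is a C-type lectin-like receptor of oxidized low-density lipoprotein first known from endothelium. In the liver, KCs are rich in MARCO and take up blood-borne particles, while sinusoidal endothelial cells carry several scavenger receptors of their own.

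Promoter sequence from RefSeq (GRCm38.p6) was at hand for 3 of the 6 genes, Marco, Cd36 and Olr1. Each window holds 250 bases before and 50 after a transcription start, 5′ to 3′ on the minus strand, at chr1:120504975-120505274 for Marco, chr5:17835847-17836146 for Cd36 and chr6:129507116-129507415 for Olr1. They are shown because the E proteins that ID3 binds recognize the E-box, CANNTG, which reads the same way on both strands. Capitals mark every E-box.
Marco: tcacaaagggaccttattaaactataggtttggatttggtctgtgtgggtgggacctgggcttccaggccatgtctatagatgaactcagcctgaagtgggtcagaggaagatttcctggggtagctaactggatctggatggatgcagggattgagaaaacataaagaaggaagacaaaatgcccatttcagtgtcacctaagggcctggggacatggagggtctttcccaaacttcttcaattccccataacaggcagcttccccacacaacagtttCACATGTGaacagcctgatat
Cd36: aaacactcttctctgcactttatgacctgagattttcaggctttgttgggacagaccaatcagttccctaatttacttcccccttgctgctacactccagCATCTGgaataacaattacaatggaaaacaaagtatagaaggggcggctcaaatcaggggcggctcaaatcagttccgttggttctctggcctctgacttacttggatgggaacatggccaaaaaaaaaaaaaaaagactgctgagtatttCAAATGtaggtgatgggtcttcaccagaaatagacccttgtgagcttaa
Olr1: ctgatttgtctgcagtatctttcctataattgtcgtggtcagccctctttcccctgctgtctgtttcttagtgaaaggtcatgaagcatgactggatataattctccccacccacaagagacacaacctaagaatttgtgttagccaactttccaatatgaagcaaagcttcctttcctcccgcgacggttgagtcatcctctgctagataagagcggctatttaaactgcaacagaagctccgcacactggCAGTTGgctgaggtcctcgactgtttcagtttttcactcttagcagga
The Marco window holds 2 E-boxes that overlap, which span bases 30 to 37 from the start. In Cd36, 1 E-box lies at bases -150 to -145 and another at bases 2 to 7, and the start used lies inside the gene, upstream of which other Cd36 transcripts begin. The Olr1 window has 1 E-box, at bases 3 to 8. An E-box is in 72.3% of the 32851 RefSeq windows of this length, so that holding one does not set these genes apart. GAGGAA, letters of the PU.1 site, was found on either strand once in Marco and once in Olr1, against 28.3% of all windows. TGANTCA, the AP-1 type, occurred in Olr1 only, at bases -60 to -54, against 7.81% of all windows. A match of letters is a description and not a binding site.

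In the coordinates of GRCm38, the build of the deposited tables (mm10), Marco lies on chromosome 1 at 120474538 to 120505024, Msr1 on chromosome 8 at 39581685 to 39642673, Cd36 on chromosome 5 at 17781690 to 17888801, Scarb1 on chromosome 5 at 125277087 to 125341094, Colec12 on chromosome 18 at 9707595 to 9882644 and Olr1 on chromosome 6 at 129485244 to 129507165. All 6 are protein-coding, and those on chromosomes 1, 5, 6 and 8 are on the minus strand. No coding gene overlaps any of them in this annotation. Scarb1 and Colec12 hold only pseudogenes, small RNAs and models of uncertain coding status within their bounds.

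All values are the deposited log2 values, which have the features of regularized counts normalized within each table. Summed on the linear scale, a sample held 34100000 to 39700000 in the TIM4+CD206+ table, 32600000 to 35100000 in the TIM4+CD206hi table and 21800000 to 24000000 in the Id3 table. The transformation draws genes with few reads towards their mean, so that differences of a gene as low as Olr1 can be understated, and the 3 tables were scaled separately, so that values are tested only within a table. Differences below are log2 fold changes, tumour-bearing minus tumour-free or Clec4fCreId3f/f minus Id3f/f, with limma's standard error (SE), and a gene was called at a Benjamini-Hochberg adjusted p under 0.05 over all genes tested. The KC genes Clec4f and Timd4 were abundant in all samples, with values of 16.11 to 19.65 and 13.76 to 15.25. In bulk samples, fewer cells of a type and less RNA per cell cannot be told apart.

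To set the receptors against each other, levels were divided by transcript length. Marco stood highest among the 6 in each of the 6 groups, at a log2 level per kb of 14.26 ± 0.68 (SD, n = 3) in TIM4+CD206+ KCs without tumour and 15.15 ± 0.27 (n = 3) in those with tumour. Its rank among 12438 coding genes tested was 134 and 72 in these groups. In TIM4+CD206hi KCs the rank of Marco was 71 and 27 of 13508, and in Id3f/f and Clec4fCreId3f/f KCs 22 and 9 of 12063. KCs of all groups thus held Marco among their most abundant coding mRNAs.

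Behind Marco, the order differed between the tables. In tumour-free TIM4+CD206+ KCs it ran Scarb1, Msr1, Cd36, Colec12 and Olr1, with log2 levels per kb of 13.02, 10.67, 9.28, 5.33 and 2.44, and every neighbour differed by more than the sum of the SDs of the pair. The same order stood in tumour-bearing TIM4+CD206+ KCs, again beyond these SDs. In tumour-free TIM4+CD206hi KCs the levels of Cd36 (13.14), Msr1 (13.09) and Scarb1 (12.24) lay within their spread of each other and Marco (14.30) within that of Cd36, with Colec12 (7.65) and Olr1 (5.28) below. Msr1 (12.95) led Scarb1 (12.48) and Cd36 (12.40) in tumour-bearing TIM4+CD206hi KCs, where the last pair lay within their spread. In Id3f/f KCs Msr1 (12.56) was above Scarb1 (11.87), and in Clec4fCreId3f/f KCs Scarb1 (12.26) and Msr1 (12.20) lay within their spread. Colec12 was next to last and Olr1 last in every group.

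**Figure D1:**
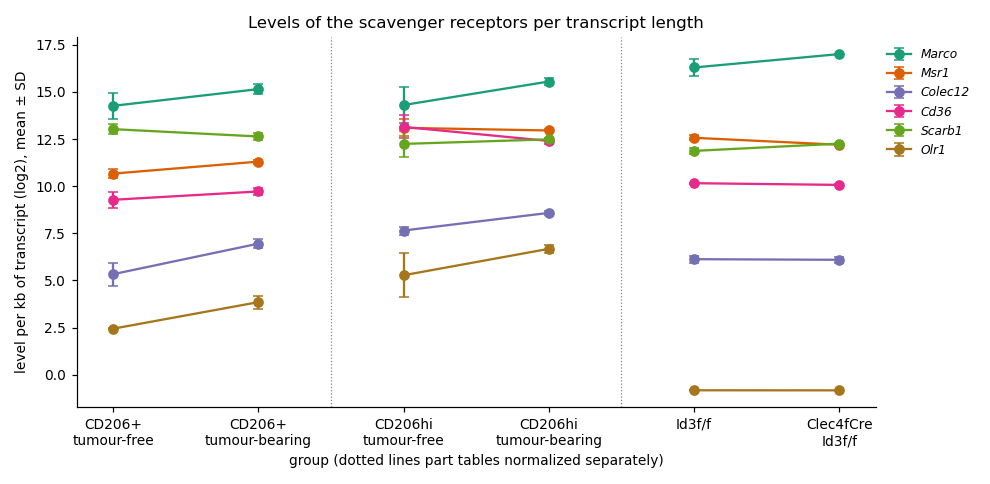
Log2 level per kb of transcript (y axis) of the 6 receptors in the 6 groups (x axis), as mean ± SD of 3 samples, or 2 in Clec4fCreId3f/f KCs. Dotted lines part the tables that were normalized separately, and lines join the groups compared. Marco is the top line and Olr1 the bottom line in each table, and Cd36 sits beside Msr1 and Scarb1 in CD206hi KCs and below both in CD206+ KCs.

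Cd36 had different places in the subsets. It ranked 2879 and 2381 of 12438 coding genes in tumour-free and tumour-bearing TIM4+CD206+ KCs, and 229 and 398 of 13508 in TIM4+CD206hi KCs. Msr1 ranked 1522 and 1065 in the first and 242 and 248 in the second. These ranks come from tables scaled separately, and the difference between subsets was not tested. Sex-linked genes differed between these tables too. Ddx3y, on the Y chromosome, was 7.19 to 9.28 in TIM4+CD206+ and 11.71 to 12.48 in TIM4+CD206hi samples. Xist was at 0 in the first and at -1.99 to -1.98 in the second. The part of sex in the ranks of Cd36 and Msr1 was not tested. The summed linear values of 12 endothelial markers took 0.0374% to 0.0790% of a sample in TIM4+CD206+ KCs and 0.406% to 0.978% in TIM4+CD206hi KCs, and their part in the levels of Cd36 was not tested.

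The first question was how the receptors change when KCs lie in a liver with tumour. In TIM4+CD206+ KCs, Colec12 and Olr1 rose, by 1.62 and 1.41 on the log2 scale, and 2 of the 6 receptors were thus called, both higher, where 3.54% of the 13233 genes tested were called, 2.55% higher and 0.998% lower. These were 337 genes higher and 132 lower, and 427 and 595 without tumour-free replicate 2. Marco and Msr1 were higher in every tumour-bearing sample without passing the test, so that 4 of the 6 had groups without overlap, all of them higher, against 23.4% of all genes, 12.9% higher and 10.5% lower. The median change of the 6 was 0.76, and that of all genes tested was 0.02.

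Colec12 encodes a membrane collectin that binds oxidized low-density lipoprotein and sugars. Its values in the 3 tumour-free TIM4+CD206+ samples were 7.63, 8.70 and 8.68, and in the 3 tumour-bearing ones 10.18, 9.97 and 9.72. All tumour-bearing samples lay above all tumour-free ones, and tumour-free replicate 1 was the lowest. The change was 1.62 (SE 0.32, limma adjusted p = 0.0318), or 3.07-fold on the linear scale. The call was lost without tumour-free replicate 3 (adjusted p = 0.0645) and without any of the tumour-bearing replicates (0.143, 0.113 and 0.0903), while the change stayed between 1.27 and 1.80 in every alternative run.

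Olr1 was low in both groups. The tumour-free samples held 4.27, 4.30 and 4.27, near the value of 10 counts (3.32), and the tumour-bearing samples 5.55, 5.44 and 6.08. The groups lay apart by more than the spread within either. The difference was 1.41 (SE 0.21, limma adjusted p = 0.00968). The SD was 0.015 without tumour and 0.34 with it. At values this low the transformation can narrow a group, so that the tumour-free SD need not be the spread between samples. When tumour-free replicate 3 was left out the adjusted p was 0.0502.

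Marco, which binds bacteria and polyanionic particles, had 15.45, 14.43 and 15.73 in the tumour-free and 16.37, 16.08 and 15.83 in the tumour-bearing samples. The lowest tumour-bearing sample was just above the highest tumour-free one, and tumour-free replicate 2 lay apart from the other two. The change of 0.89 (SE 0.33) had a limma adjusted p of 0.209, and leaving out tumour-free replicate 2 brought it to 0.50 (adjusted p = 0.116).

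Msr1, the type of scavenger receptor that takes acetylated low-density lipoprotein, held 12.67, 12.24 and 12.68 in tumour-free and 13.27, 13.06 and 13.16 in tumour-bearing samples. Here too the groups did not overlap, with tumour-free replicate 2 the lowest. The change was 0.63 (SE 0.17, limma adjusted p = 0.0961). Replicate 2 of both groups deviated together in this table, while replicates 1 and 3 also deviated with each other across numbers. With the number as a block Msr1 was called at the same change (adjusted p = 0.0357). It was also called without tumour-free replicate 2, where the change was 0.49 (0.0448), and with quantile normalization, where it was 0.69 (0.0370).

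The receptors of the CD36 family overlapped between the groups. Cd36 had 10.56, 11.35 and 11.22 in tumour-free and 11.66, 11.33 and 11.46 in tumour-bearing samples, a difference of 0.44 (SE 0.23, limma adjusted p = 0.393) that was 0.20 without tumour-free replicate 1 (0.715). Scarb1 had 14.04, 14.53 and 14.51 against 13.79, 14.19 and 13.93, a difference of -0.39 (SE 0.19, limma adjusted p = 0.353). Scarb1 was the only receptor of the 6 with a lower mean in tumour-bearing than in tumour-free TIM4+CD206+ KCs, and this direction held in every alternative run.

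**Figure D2:**
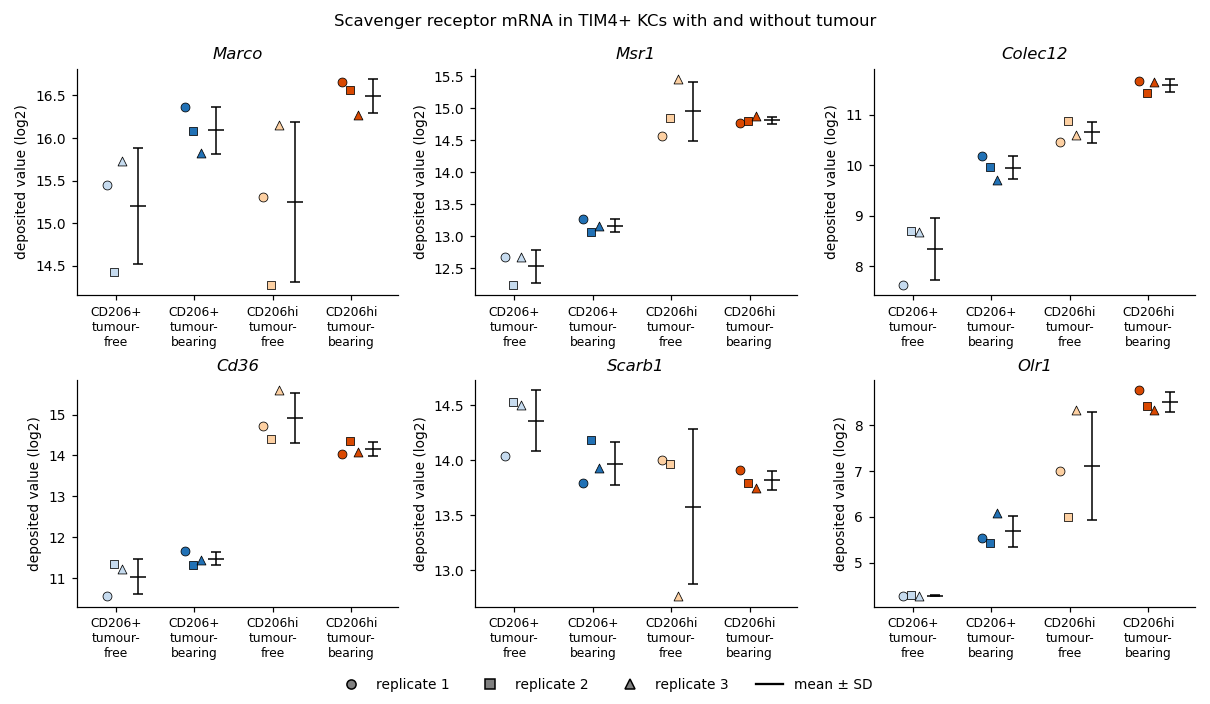
Deposited log2 value (y axis, own range in each panel, not starting at 0) of each receptor in each sample of the 4 groups (x axis). Marker shape gives the replicate number and the bar beside the points is mean ± SD of 3 samples. CD206+ and CD206hi KCs come from tables normalized separately. Tumour-bearing points lie above tumour-free points for Marco, Colec12 and Olr1 in both subsets, and for Msr1 in CD206+ KCs only.

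In TIM4+CD206hi KCs, Colec12 rose by 0.94 and was the 1 receptor of the 6 called, where 7.23% of the 14561 genes tested were called, 5.21% higher and 2.03% lower. Marco and Olr1 were also higher in all tumour-bearing samples, and Cd36 was lower in all of them, without passing the test. Groups without overlap were thus seen for 4 of the 6, 3 higher and 1 lower, against 30.7% of all genes, 15.6% higher and 15.2% lower. The median change of the 6 was 0.59, and that of all genes was 0.03, which median centring of the samples moved to -0.13. Tumour-free replicates 2 and 3 stood apart for several of the 6, so that values without them are given.

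Colec12 had 10.47, 10.89 and 10.60 in tumour-free and 11.67, 11.44 and 11.65 in tumour-bearing TIM4+CD206hi samples. The gap between the groups was larger than the range within either. The change of 0.94 (SE 0.18, limma adjusted p = 0.0205) was 1.91-fold on the linear scale. Its adjusted p was above 0.05 without tumour-free replicate 1 (0.0757), without each tumour-bearing replicate (0.131, 0.0796 and 0.113) and with median centring (0.0537), and the change ran from 0.78 to 1.05 over the alternatives.

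Marco had 15.31, 14.27 and 16.16 in tumour-free and 16.65, 16.56 and 16.27 in tumour-bearing samples. Tumour-free replicate 3 nearly reached the tumour-bearing samples, and tumour-free replicate 2 lay far below. The change was 1.25 (SE 0.44, limma adjusted p = 0.163). When tumour-free replicate 3 was left out it was 1.70 (adjusted p = 0.0304), and when tumour-free replicate 2 was left out 0.76 (0.0961).

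Olr1 followed the same order of samples as Marco, with 7.0, 6.0 and 8.34 in tumour-free and 8.77, 8.42 and 8.35 in tumour-bearing samples. The highest tumour-free and the lowest tumour-bearing values were almost equal. The change was 1.40 (SE 0.55, limma adjusted p = 0.204), as large as in TIM4+CD206+ KCs, where the tumour-free samples were tightly grouped. Without tumour-free replicate 3 it was 2.02 (adjusted p = 0.0218), and without tumour-free replicate 2 it was 0.84 (0.166).

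Cd36, the fatty acid receptor, went the other way. Its values were 14.71, 14.41 and 15.59 in tumour-free and 14.04, 14.36 and 14.08 in tumour-bearing samples, and the groups were divided by a gap smaller than the spread in either. The change was -0.74 (SE 0.31, limma adjusted p = 0.224), with -0.99 when tumour-free replicate 2 was left out (adjusted p = 0.0424) and -0.40 when replicate 3 was (0.172). Endothelial markers were lower with tumour too. Of the 12, 3 fell and the others did not pass the test, and their sum was 0.978%, 0.632% and 0.851% of the tumour-free samples and 0.406%, 0.481% and 0.525% of the tumour-bearing ones. Tumour-free replicate 3 was highest for Cd36 and replicate 1 for this sum. In TIM4+CD206+ KCs 10 of the 12 were lower with tumour as well, while the change of Cd36 was 0.44. No endothelial marker of the list was at 0, and their part in the result was not tested.

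Msr1 and Scarb1 showed no direction that held. Msr1 was 14.56, 14.84 and 15.46 in tumour-free and 14.77, 14.80 and 14.88 in tumour-bearing samples, a difference of -0.14 (SE 0.24, limma adjusted p = 0.756). Scarb1 was 14.00, 13.96 and 12.76 against 13.91, 13.79 and 13.75, a difference of 0.24 (SE 0.33, limma adjusted p = 0.694). In both, tumour-free replicate 3 lay outside the range of the other 5 samples, highest for Msr1 and lowest for Scarb1. Without it, the differences turned to 0.11 for Msr1 (adjusted p = 0.603) and -0.17 for Scarb1 (0.338), and with quantile normalization that of Msr1 was 0.054 (0.886).

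Set side by side, Marco, Colec12 and Olr1 had positive changes in both subsets, of 0.89 and 1.25, 1.62 and 0.94, and 1.41 and 1.40. Those of Cd36 were 0.44 and -0.74, those of Msr1 0.63 and -0.14, and those of Scarb1 -0.39 and 0.24. Whether the changes of the subsets differ was not tested, since their tables were normalized separately.

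**Figure D3:**
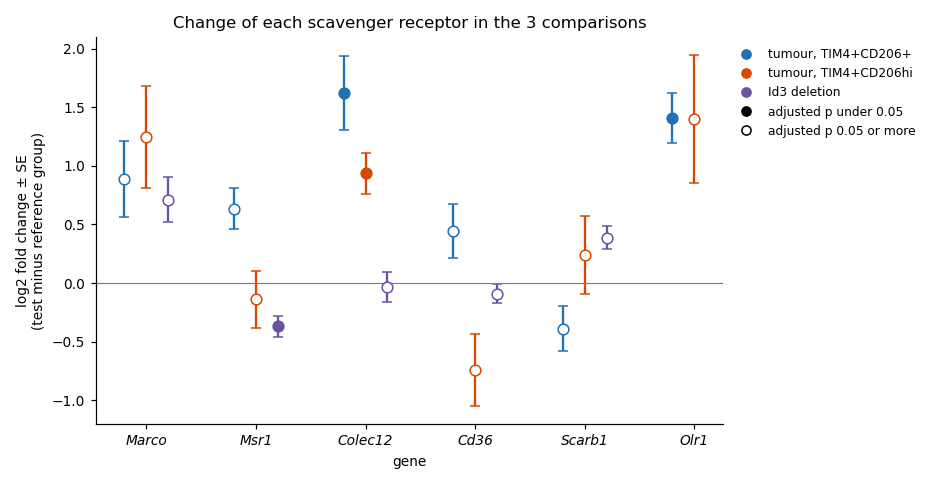
Log2 fold change (y axis) of each receptor (x axis) with tumour in TIM4+CD206+ KCs (blue), with tumour in TIM4+CD206hi KCs (orange) and with Id3 deletion (purple), with limma's SE as bars. Filled points had an adjusted p under 0.05, and Olr1 was not tested in the Id3 table. Filled points are Colec12 in both subsets, Olr1 in CD206+ KCs and Msr1 with Id3 deletion.

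Markers of other cells moved with tumour in both subsets. Of 8 tumour epithelial markers tested, 8 rose in each subset, and their sum went from a range of 0.00504% to 0.00872% of a TIM4+CD206+ sample to 0.102% to 0.117%, and from 0.00482% to 0.00706% of a TIM4+CD206hi sample to 0.147% to 0.157%. A marker could enter the test through the tumour-bearing samples alone, and such a call carries no weight, so that the count of 8 is not a result beside the sums. Of 9 neutrophil markers, 5 and 4 rose, with sums of 0.0248% to 0.0447% and 0.0177% to 0.0392% without tumour and 0.0941% to 0.102% and 0.0523% to 0.0799% with it, and of 9 monocyte markers 3 rose in each. Of 12 KC markers, 3 fell in TIM4+CD206+ KCs and 0 passed the limma test in TIM4+CD206hi KCs, where 3 had an unadjusted p under 0.05. Of 11 hepatocyte markers, 8 and 7 fell, and of the 12 endothelial markers 0 passed in TIM4+CD206+ KCs, where 3 had an unadjusted p under 0.05. Markers of B cells fell too, 3 of 4 and 2 of 5 tested, and of 10 stellate cell markers 3 fell in TIM4+CD206hi KCs, while 0 passed of 9 stellate markers in TIM4+CD206+ KCs and of the 7 dendritic and 8 T and NK cell markers in either subset (unadjusted p under 0.05 for 2 stellate markers, 1 and 0 dendritic markers, and 2 and 4 T and NK cell markers). Of the epithelial, neutrophil, monocyte, KC, endothelial and hepatocyte markers listed, none was at 0 in every sample of a table, and their part in the changes of the receptors was not tested. Timd4, a gate marker, fell by 0.75 in TIM4+CD206+ KCs (limma adjusted p = 0.0463), and its change was -0.64 in TIM4+CD206hi KCs (0.149). The change of Mrc1, which encodes the gate marker CD206, was -0.26 in TIM4+CD206+ and -0.65 in TIM4+CD206hi KCs, without passing the test.

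Genes related to the 6 receptors are given by list, to be read against the 3.54% of all genes called in TIM4+CD206+ and the 7.23% called in TIM4+CD206hi KCs. Of 16 other scavenger receptors tested in TIM4+CD206+ KCs, 1 rose, Scara3, by 0.79 (SE 0.17, limma adjusted p = 0.0412). With any sample but tumour-free replicate 2 left out, 0 of the list were called, and 1 was called without that replicate. The count was also 0 with no filter, no trend, quantile normalization and median centring. It was 0 with the stricter filter, which leaves Scara3 untested, and 4 with the number as a block. In TIM4+CD206hi KCs 2 of 17 rose, Scara3 by 3.20 (SE 0.41, limma adjusted p = 0.00380) and Vldlr, a receptor of triglyceride-rich lipoprotein, by 1.56 (SE 0.22, 0.00577). Without tumour-free replicate 2, 4 of the 17 were called. Vldlr was at 2.93 (SD 0.05) in tumour-free samples, below the value of 10 counts (3.32), and at 4.50 (SD 0.38) in tumour-bearing ones. It thus entered the test only through the tumour-bearing samples, and its call carries no weight. Of 18 partners of CD36 and SR-BI and genes of fatty acid uptake, 2 rose in TIM4+CD206+ KCs. They were Cd9, a tetraspanin found in complexes with CD36, by 2.12 (SE 0.18, limma adjusted p = 0.000594), and Fabp5, a carrier of fatty acids in the cytosol, by 1.79 (SE 0.34, 0.0271). The study used CD9 among the markers of a metastatic subset of tumour cells. The part of tumour cell RNA in the rise of Cd9 was not tested. Without tumour-free replicate 3 or any of the tumour-bearing samples 1 of the list was called, Cd9, and without tumour-free replicate 2 there were 4. In TIM4+CD206hi KCs 0 of these 18 passed the limma test and 7 had an unadjusted p under 0.05, while 5 were called without tumour-free replicate 2. Of 13 genes that handle internalized modified lipoprotein and 8 transcription factors known for the receptors, such as Pparg for Cd36, 0 passed in either subset, with 2 and 1 in TIM4+CD206+ and 3 and 2 in TIM4+CD206hi KCs at an unadjusted p under 0.05. When tumour-free replicate 2 was left out, 2 of the transcription factors were called in TIM4+CD206+ KCs, and 3 of the handling genes and 4 of the transcription factors in TIM4+CD206hi KCs.

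The second question was what happens to the receptors when KCs lose Id3. Id3 was 12.58, 12.46 and 12.82 in Id3f/f and 9.83 and 9.82 in Clec4fCreId3f/f KCs, and Clec4f, the gene that carries cre, fell by 1.52. Msr1 fell by 0.37 and was the 1 receptor called of the 5 tested, where 6.44% of 12833 genes were called, 3.08% higher and 3.37% lower. Marco and Scarb1 were higher in both Clec4fCreId3f/f samples than in any Id3f/f sample, and Msr1 and Cd36 lower, so that 4 of 5 had groups without overlap, against 41.9% of all genes, 20.2% higher and 21.7% lower. The median change of the 5 was -0.03, with changes in both directions.

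Msr1 was 14.31, 14.41 and 14.56 in Id3f/f and 14.09 and 14.03 in Clec4fCreId3f/f samples. Both Clec4fCreId3f/f values lay below all Id3f/f values, by less than the range of the latter. The change of -0.37 (SE 0.09, limma adjusted p = 0.0394) was 0.774-fold on the linear scale. The call was lost in 7 of 11 alternatives, among them each Id3f/f replicate but the third and each Clec4fCreId3f/f replicate left out, with adjusted p from 0.00402 to 0.334 over the 11, while the change stayed between -0.43 and -0.28.

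Marco was 17.50, 17.49 and 16.73 in Id3f/f and 17.95 in both Clec4fCreId3f/f samples. Id3f/f replicate 3 lay apart from the other 4 samples. The change was 0.71 (SE 0.19, limma adjusted p = 0.0581), and 0.46 without Id3f/f replicate 3, where it was called. It was also called with a stricter filter (adjusted p = 0.0370) and with quantile normalization (0.0348).

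Scarb1, the receptor of high-density lipoprotein, had 13.05, 13.21 and 13.36 in Id3f/f and 13.63 and 13.56 in Clec4fCreId3f/f samples. The difference of 0.39 (SE 0.10, limma adjusted p = 0.0510) was close to the threshold and was called with the stricter filter (0.0349), with quantile normalization (0.0295) and without Id3f/f replicate 3 (0.00143). Marco and Scarb1 kept a positive change in every alternative run.

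The remaining receptors differed little. Cd36 was 11.88, 11.94 and 11.94 in Id3f/f and 11.85 and 11.81 in Clec4fCreId3f/f samples, a difference of -0.09 (SE 0.08, limma adjusted p = 0.567). Colec12 was 9.11, 9.33 and 8.95 against 9.20 and 9.0, a difference of -0.03 (SE 0.12, limma adjusted p = 0.907) that turned positive when 1 sample was left out. Olr1 was 1.01 to 1.02 in the 5 samples, below the value of 10 counts, and was not tested, so that a change was not detectable at this depth.

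**Figure D4:**
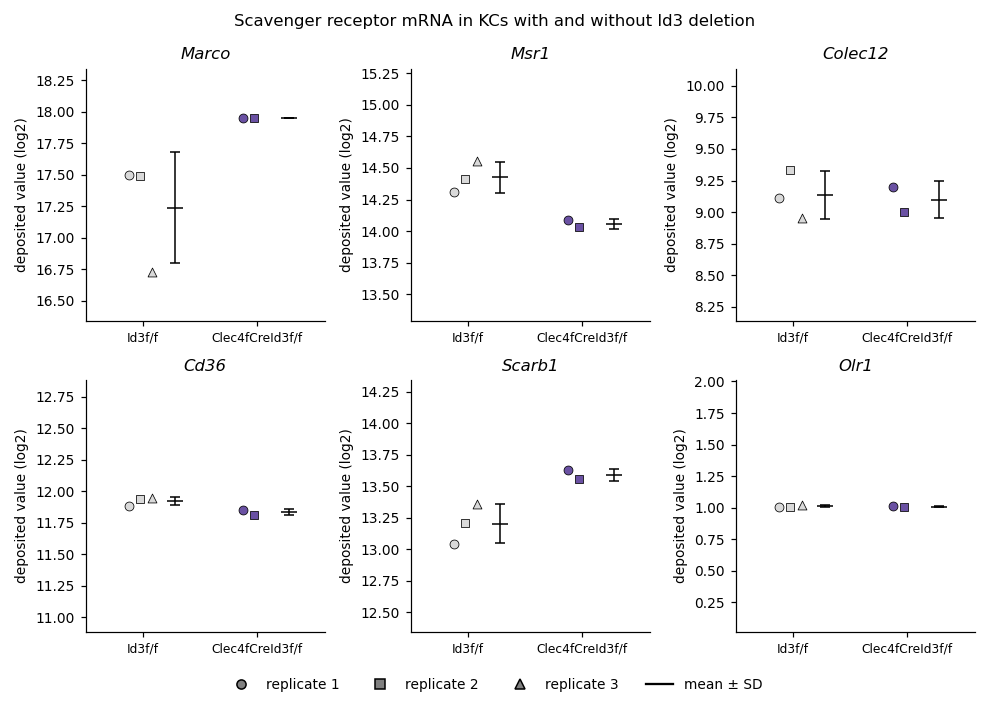
Deposited log2 value (y axis, own range in each panel, not starting at 0) of each receptor in 3 Id3f/f and 2 Clec4fCreId3f/f samples (x axis). Marker shape gives the replicate number and the bar beside the points is mean ± SD. Clec4fCreId3f/f points lie above all Id3f/f points for Marco and Scarb1 and below them for Msr1 and, narrowly, Cd36, and Olr1 lies at 1.01 to 1.02 throughout.

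Sex-linked genes divided the genotypes. Xist was 6.33 to 6.38 in Id3f/f and 9.76 to 9.84 in Clec4fCreId3f/f samples, and Ddx3y, on the Y chromosome, 9.43 to 9.46 and 7.0 to 7.01, so that sex and genotype cannot be told apart for any change in this table. Of 12 KC markers, 4 were called higher and 4 lower, with sums of 3.71% to 4.09% of an Id3f/f and 3.77% to 3.83% of a Clec4fCreId3f/f sample. The endothelial markers took 0.0601% to 0.0743% and 0.0690% to 0.0694%, with 1 called in each direction. Of 11 hepatocyte, 7 neutrophil and 5 tumour epithelial markers tested, 0 passed the limma test, with 3, 0 and 0 at an unadjusted p under 0.05, and of 7 monocyte markers 1 fell. Of 10 stellate, 6 dendritic, 4 B cell and 8 T and NK cell markers 0 passed, with 2 at an unadjusted p under 0.05, both dendritic. The epithelial marker Cldn4 and the monocyte marker Vcan were at 0, and the part of these markers in the results was not tested.

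The same lists are to be read here against the 6.44% of all genes called, and none of their genes kept a call by limma when either Clec4fCreId3f/f sample was left out. Of 13 other scavenger receptors tested, 3 fell, the beta-glucan receptor gene Clec7a by 0.70 (SE 0.10, limma adjusted p = 0.00580), Cd68 by 0.56 (SE 0.07, 0.00351) and Cxcl16, whose product binds oxidized lipoprotein, by 0.55 (SE 0.08, 0.00618). Of the 18 partners and uptake genes 4 were higher and 2 lower, with Fyn, a kinase that CD36 signals through, up by 0.58, Lpl, which frees fatty acids from lipoproteins, up by 0.55, Itgb1 up by 0.41 and Cd9 down, at -0.60. Of 13 genes of lipoprotein handling 5 fell and 1 rose. Those that fell included Apoe, at -0.62, and the lysosomal proteases Ctsd, at -0.62, and Ctsb, at -0.55, and the cholesterol exporter Abcg1 rose by 0.56. Of the transcription factors, Nfe2l2, the regulator of the response to oxidants, fell by 0.65 (SE 0.10, limma adjusted p = 0.00730).

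Over the 17 samples, after the mean of each table was removed, the genes most like each receptor among 12222 tested in all tables were found by Pearson's r, as a description with no test, over samples that share their groups and libraries. For Marco they were Ngp, Tmc3 and Lpl (r = 0.90 each). Ngp is 1 of the 9 neutrophil markers, which were all higher with tumour in both subsets, and their part in this likeness was not tested. For Colec12 they were Gda (0.94), Anxa1 (0.93) and Emb (0.93), and for Cd36 Sept2 (0.91), Abcg2 (0.90) and Rab21 (0.90). Those of Cd36 were 0.78, 0.76 and 0.81 over the 16 samples without tumour-free TIM4+CD206hi replicate 3. Msr1 was most like Commd8, Smn1 and Trappc1 (0.91 each), and Scarb1 most like Med15 (0.96), Cyth1 (0.95) and Dnm2 (0.94). Msr1 and Scarb1 ran opposite to each other, with r = -0.82, and -0.75 without tumour-free TIM4+CD206hi replicate 3. Cd36 and Scarb1 had r = -0.60, which was -0.05 without that sample.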

How the data were processed

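The 17 RNA-seq samples of sorted KCs were grouped by their labels. The authors amplified cDNA with SMART-Seq, aligned reads with STAR 2.7.10a, counted them on genes with HTSeq and compared them with DESeq2. The values the authors deposited are on a log2 scale and have the features of DESeq2's regularized log transformation, made separately for each of the 3 tables, although columns are headed TPM. The values are not counts and were therefore tested on the log2 scale. No depth per sample beyond the summed linear values was used, and no molecular identifiers mark PCR copies.

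A gene entered the test if 3 samples, or 2 in the Id3 table, reached the value of 10 counts. Within each table, limma 3.58.1 (R 4.3.3; trend of variance on mean; Benjamini-Hochberg over all genes tested) compared the groups, after a check on simulated tables. Levels per kb used the longest coding transcript of GENCODE for GRCm38. Figures were made with matplotlib 3.10.9 in Python 3.11.15.

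Samples with the same replicate number deviated together across genes in TIM4+CD206+ KCs (r = 0.35, 0.56 and 0.15), and this pairing comes from the data and not from the labels. Tumour-bearing replicate 3 deviated more with tumour-free replicate 1 (r = 0.30) than with its own number. Tumour-bearing replicate 1 also deviated with tumour-free replicate 3 (r = 0.16). Only replicate 2 was thus paired by its number alone. The 6 receptors, the related genes and the markers were chosen with earlier results of these data known. The genes named are the 6 receptors, up to 4 called genes of the largest change per list and comparison, Id3, Clec4f, Timd4, Mrc1 and the 3 genes most like each receptor. 1 gene that this rule names is not reported here. Xist, Ddx3y, Cldn4 and Vcan were named after their values were seen. The alternatives were no filter, a mean of at least 50 counts, the replicate block, each sample left out, no trend, quantile normalization, median centring and, added after seeing the data, correlations without 1 sample. Protein sequences, and promoters of the other 3 receptors, were not used here.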

Additional observations from a re-analysis of the deposited data

How the results depend on the processing

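The receptors' log2 fold changes were recomputed 198 times over the alternatives, and 161 kept their direction and their side of the threshold. The direction turned 5 times, in small changes. In TIM4+CD206hi KCs Msr1 went from -0.14 to 0.11 without tumour-free replicate 3 and to 0.054 with quantile normalization (-0.34 to 0.11 with a sample left out), and Scarb1 from 0.24 to -0.17 without tumour-free replicate 3 (-0.17 to 0.45). With Id3 deletion Colec12 went from -0.03 to 0.066 without Id3f/f replicate 2 and to 0.068 without Clec4fCreId3f/f replicate 2 (-0.14 to 0.068). The correlation of Marco and Cd36 went from 0.00 to -0.13 without tumour-free TIM4+CD206hi replicate 3. The causes were not tested.

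Of the 6 receptors in TIM4+CD206+ KCs, 2 were called, 1 with the stricter filter, which leaves Olr1 untested, 3 with quantile normalization and 0 to 3 with a sample left out. In TIM4+CD206hi KCs 1 was called, 0 with median centring and 0 to 3 with a sample left out. With Id3 deletion 1 was called, 0 with no filter, 0 with no mean-variance trend, 3 with the stricter filter, 2 with quantile normalization and 0 to 3 with a sample left out. Genes called among all tested were 469 in TIM4+CD206+ KCs (231 to 1022 with a sample left out, the most without tumour-free replicate 2), 1053 in TIM4+CD206hi KCs (579 to 3634, the most without tumour-free replicate 2, and 600 with the stricter filter) and 827 with Id3 deletion (17 to 1850, and 477 with no filter). Of the called genes, quantile normalization put 664 higher and 518 lower in TIM4+CD206hi KCs against 758 and 295, and median centring 328 and 550 with Id3 deletion against 395 and 432.

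The replicate block gave 1026 called genes and 3 of the receptors in TIM4+CD206+ KCs, where only replicate 2 was paired by its number alone. In the other tables same-numbered samples did not deviate together (r = -0.05, -0.13 and -0.05 in TIM4+CD206hi KCs, -0.07 and -0.10 in the Id3 table), so that the block is a change of settings there. It called 909 genes and 0 of the receptors in TIM4+CD206hi KCs, where Colec12 had an adjusted p of 0.0726, and 2089 genes and 3 of the receptors with Id3 deletion, where it leaves out Id3f/f replicate 3. Where 1 Clec4fCreId3f/f sample is left, it is assumed to vary like the Id3f/f samples. With 2 or 3 samples a group and values drawn together at low counts, a small change of Olr1 could not be seen.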
